A study of Mus musculus with 7 samples.

Results

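A set of regulators of regional identity in the developing brain were examined in mouse glioma cells: the midbrain and hindbrain factors En1, En2, Cnpy1, Otx2, Gbx2, Pax2 and Pax5, and the POU-domain factors Pou3f4 and Pou4f1. The group was chosen by the rise of En2, Cnpy1, Pou4f1 and Pou3f4 in tertiary against secondary gliomas on these same arrays, so the differences of its members between the groups are a description. No p-value is given for a member, and counts of calls that include members are printed without being read as a test. Of the 9 genes, 8 had a probe assigned to that gene alone, out of 18193 such genes on the array, and Pax2 was not analysed here. A gene with several probes was represented by the one with the highest mean over the 7 arrays. The tumours derived from C57/Bl6 gliomas of early onset and low grade, driven by overexpressed PDGF-B, a growth factor ligand, that was made from 1 transcript with the fluorescent protein EGFP. Secondary gliomas (n = 4) arose when cells of the primary tumour were grafted into NOD/SCID mice, and tertiary gliomas (n = 3) when a secondary glioma was grafted into NOD/SCID mice again. NOD/SCID mice lack functional B and T lymphocytes but keep their own myeloid and brain cells. Both groups carried the PDGF-B/EGFP transgene, and in both the EGFP-positive cells were sorted before RNA was extracted. The labels name the samples of a group biological replicates without saying which primary tumour, donor or host each came from, so every SD and p-value here covers the spread between these samples only, and ages were not given in the sources used here.

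In the embryo the border between midbrain and hindbrain is an organising centre, placed where the forebrain and midbrain factor Otx2 meets the hindbrain factor Gbx2. Cells at this border express the paired-box factors Pax2 and Pax5 and the engrailed homeobox factors En1 and En2, and they secrete fibroblast growth factors, chiefly Fgf8, that pattern the tissue on either side. Cnpy1 encodes a protein of the Canopy family that in fish embryos promotes fibroblast growth factor signalling at this border. Pou3f4 (also called Brn4) acts in the inner ear, the forebrain and neural progenitors, and Pou4f1 (also called Brn3a) in sensory neurons and in nuclei of the habenula and midbrain.

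The promoter stretches of Cnpy1, Pou3f4 and Pou4f1 are shown because these genes had higher values in every tertiary glioma; En2, the fourth such gene, had no entry in the table used. Each is the 250 bases before an annotated start, read 5′ to 3′ on the gene's strand in the RefSeq promoter table of GRCm38.p6, with every CG dinucleotide in capitals. The 8 members other than En2 were in that table, with 14 stretches between them. Cnpy1 had an upstream start (chr5:28245789-28246038, minus strand) and a downstream start (chr5:28210169-28210418, minus strand). Pou3f4 (chrX:110814129-110814378, plus strand) and Pou4f1 (chr14:104468000-104468249, minus strand) had 1 start each.
Cnpy1 upstream start: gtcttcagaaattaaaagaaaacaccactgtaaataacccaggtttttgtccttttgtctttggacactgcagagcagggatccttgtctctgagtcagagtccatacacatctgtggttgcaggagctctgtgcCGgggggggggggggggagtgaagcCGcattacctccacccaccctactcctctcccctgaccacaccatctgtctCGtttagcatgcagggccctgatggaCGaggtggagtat
Cnpy1 downstream start: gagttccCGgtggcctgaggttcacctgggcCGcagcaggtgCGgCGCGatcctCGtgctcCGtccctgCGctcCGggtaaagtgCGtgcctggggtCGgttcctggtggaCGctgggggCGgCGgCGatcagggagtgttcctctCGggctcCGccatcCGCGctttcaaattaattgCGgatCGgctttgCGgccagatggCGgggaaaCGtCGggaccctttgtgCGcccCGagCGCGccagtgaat
Pou3f4: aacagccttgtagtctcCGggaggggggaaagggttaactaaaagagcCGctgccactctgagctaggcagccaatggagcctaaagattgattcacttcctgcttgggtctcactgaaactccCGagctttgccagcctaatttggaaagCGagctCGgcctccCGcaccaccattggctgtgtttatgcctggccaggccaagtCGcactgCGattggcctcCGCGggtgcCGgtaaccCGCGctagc
Pou4f1: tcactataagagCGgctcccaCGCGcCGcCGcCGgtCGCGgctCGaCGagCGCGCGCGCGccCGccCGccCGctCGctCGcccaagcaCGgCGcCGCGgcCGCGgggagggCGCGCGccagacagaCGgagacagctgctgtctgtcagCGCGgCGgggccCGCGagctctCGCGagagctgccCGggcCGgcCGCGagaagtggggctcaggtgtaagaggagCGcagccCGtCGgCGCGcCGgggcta

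The 4 stretches differed in their content of CG, the dinucleotide at which mammalian DNA is methylated. The upstream Cnpy1 stretch held 4 and the downstream one 29, beside a median of 6 over the 32851 stretches in the table. Pou3f4 had 13, and Pou4f1 had 47, a number reached by 0.25% of all stretches. The homeodomain core TAATTA, which reads the same on both strands and was present in 4.84% of all stretches, was in none of the 4. It was in 2 of the 14 stretches of the members, both of them at starts of Otx2. The POU octamer ATGCAAAT, searched on both strands and present in 1.60% of all stretches, was in none of the 14. Which of the starts of Cnpy1 its probes report on was not tested.

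The arrays gave 1 log2 value per probe and sample, normalized by the authors, with array medians between 5.57 and 5.64. A log2 difference of 1 is a doubling. Genes whose probe averaged below 3.99, the 25th percentile of all probes, were called dim and left out of testing, which left 14453 genes. Among the members En2, Cnpy1, Pax5, Pou3f4 and Pou4f1 passed this filter, while En1, Gbx2 and Otx2 did not, and the values of those 3 come from the fit without the filter. A gene was counted as called when limma's adjusted p was under 0.05. The oligodendrocyte precursor markers that define this kind of glioma were at high levels in all 7 samples: Pdgfra lay between 10.73 and 11.15 and Sox10 between 10.22 and 10.97. The mouse Pdgfb probe, for the gene of the driver, read 6.56 to 7.61 in secondary and 5.31 to 5.71 in tertiary gliomas. Whether that probe also reads the transgene was not tested.

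En2, the engrailed factor that persists in the cerebellum and midbrain, had log2 values of 5.49, 5.76, 4.10 and 5.35 in secondary gliomas 1 to 4 and of 6.52, 7.66 and 7.39 in tertiary gliomas 1 to 3. Every tertiary value lay above every secondary one, with 0.76 between the highest secondary and the lowest tertiary sample. Secondary glioma 3 was the lowest of all 7. The means were 5.18 ± 0.74 (SD) and 7.19 ± 0.60, which differ by 2.01 ± 0.43 on the log2 scale (SE, n = 4 and 3) or 4.04-fold. Leaving out single samples moved it between 1.65, without secondary glioma 3, and 2.35, without tertiary glioma 1.

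Cnpy1 showed the widest difference among the members. Its secondary values were 4.03, 4.68, 3.46 and 4.68, around the level of the dim filter, and its tertiary values were 6.54, 9.64 and 9.32. The groups were 1.85 apart at their closest. Tertiary glioma 1 was the lowest of the tertiary samples by a wide margin, and secondary glioma 3 was again the lowest. The log2 fold change was 4.29 ± 0.73 (SE, n = 4 and 3), or 19.5-fold, on a scale where secondary values near the filter limit the fold. Leaving out tertiary glioma 1 gave 5.27, and leaving out tertiary glioma 2 gave 3.72.

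All 3 probes of Cnpy1 gave the same order of groups. The second probe, of a kind that can also bind related transcripts, read between 1.69 and 3.58 in secondary and 6.64, 9.33 and 9.05 in tertiary gliomas. All its secondary values lay below the dim filter, so no difference is given. The third probe read between 3.49 and 4.28 in secondary and 4.90, 8.83 and 8.32 in tertiary gliomas, with secondary glioma 1 alone above the filter among the secondary samples. On each of the 3 probes tertiary gliomas 2 and 3 were well above tertiary glioma 1. Probes of a gene read the same RNA and are not replicates.

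Pou4f1, the sensory neuron factor, was at 3.76, 4.00, 4.49 and 3.82 in secondary gliomas and at 6.94, 5.97 and 6.51 in tertiary gliomas. The groups did not overlap and were 1.48 apart at their closest, while the range within a group stayed below 1. The extreme samples differed from those in En2 and Cnpy1: tertiary glioma 1, lowest of the tertiary samples there, was the highest here, and secondary glioma 3, lowest of all there, was the highest secondary sample. The log2 fold change was 2.46 ± 0.27 (SE, n = 4 and 3), or 5.49-fold, with 2.23 to 2.71 when single samples were left out. Secondary gliomas 1 and 4 lay below the dim filter, which limits the fold. The second Pou4f1 probe was dim in all 7 samples, from 1.22 to 1.57 in secondary gliomas and at 3.76, 1.98 and 3.77 in tertiary gliomas.

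Pou3f4, a factor of neural progenitors and the inner ear, was nearly constant in secondary gliomas, at 5.96, 5.97, 5.84 and 5.96. In tertiary gliomas it was at 6.96, 6.98 and 7.75, with tertiary glioma 3 highest. The gap between the groups was 0.99. The log2 fold change was 1.30 ± 0.21 (SE, n = 4 and 3), or 2.46-fold, and lay between 1.04 and 1.43 when single samples were left out. The second probe spread more in secondary gliomas, with 5.00, 5.11, 3.82 and 4.98, and read 5.84, 5.71 and 6.23 in tertiary gliomas. Its difference of 1.20 was close to that of the first probe, and its low value again fell in secondary glioma 3.

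**Figure D1:**
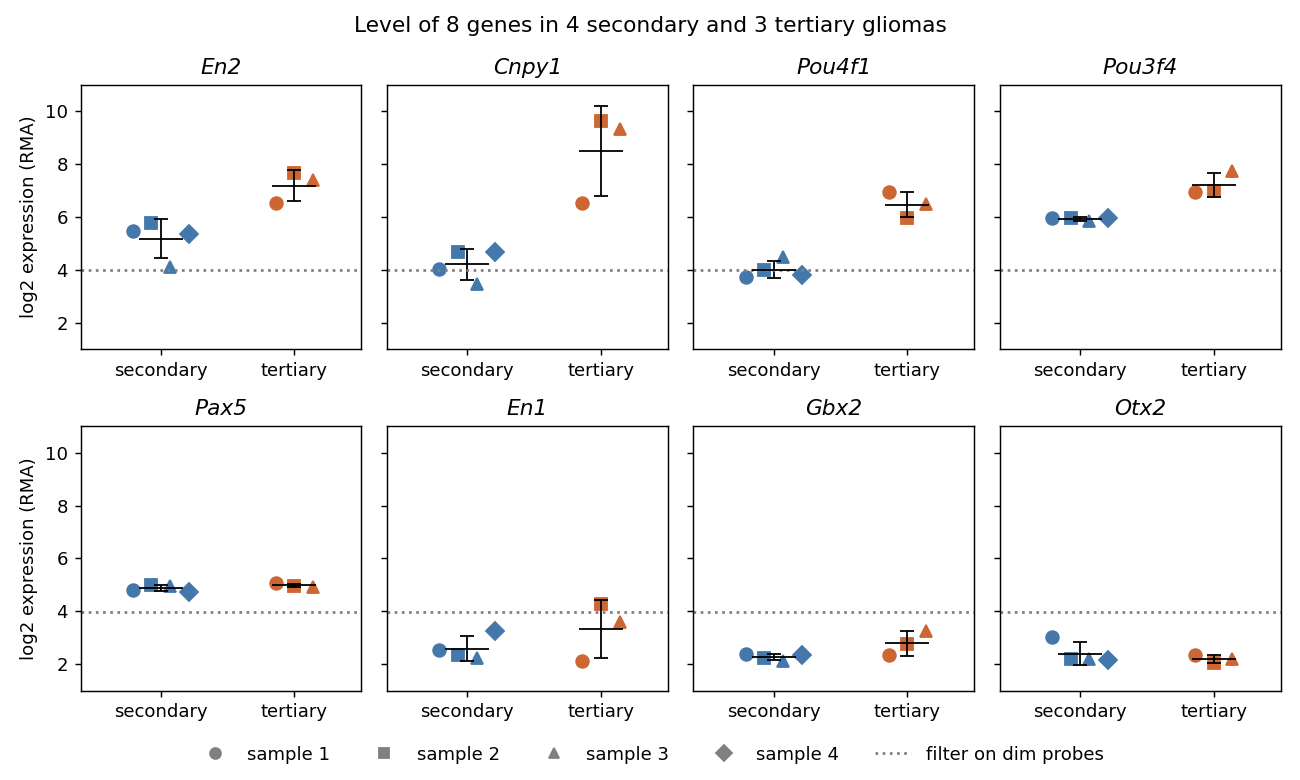
Log2 expression of the 8 members with a probe, in secondary (blue) and tertiary (orange) gliomas, with symbols for the sample number, black bars for mean ± SD and a dotted line at the dim filter of 3.99. En2, Cnpy1, Pou4f1 and Pou3f4 separate the groups, while Pax5, En1, Gbx2 and Otx2 overlap.

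**Figure D2:**
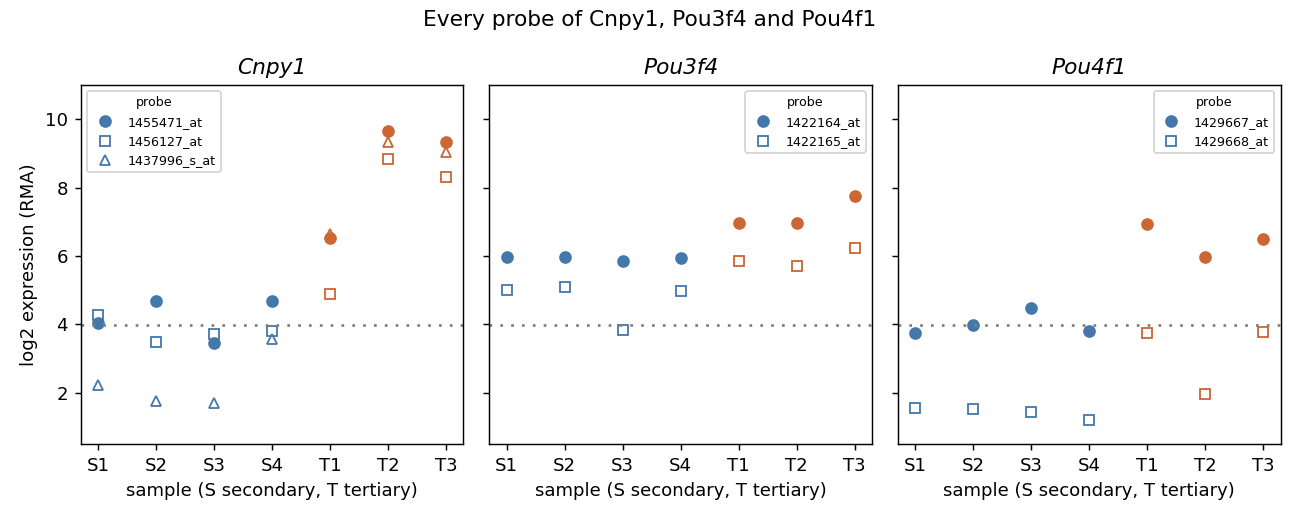
Log2 expression on every probe of Cnpy1, Pou3f4 and Pou4f1 in each sample (S secondary, blue; T tertiary, orange; filled circles for the probe used, open symbols for the others). Each probe is higher in all 3 tertiary samples than in any secondary sample, and tertiary glioma 1 is lowest on the 3 Cnpy1 probes.

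The remaining members overlapped between the groups. Pax5, a paired-box factor of the midbrain border and of B cells, was the most even: 4.80, 4.99, 4.95 and 4.75 in secondary and 5.06, 4.95 and 4.93 in tertiary gliomas, which differ by 0.11 ± 0.12 on the log2 scale (SE, n = 4 and 3). En1, the engrailed factor expressed first at the midbrain-hindbrain border, read 2.53, 2.35, 2.22 and 3.27 in secondary and 2.12, 4.29 and 3.59 in tertiary gliomas. Its log2 fold change of 0.74 ± 0.51 became 1.35 when tertiary glioma 1 was left out and 0.26 when tertiary glioma 2 was, and only the value of tertiary glioma 2 lay above the dim filter. The order of the tertiary samples in En1 was that of En2 and Cnpy1, with glioma 2 highest and glioma 1 lowest.

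Gbx2, the hindbrain factor of the border, read 2.37, 2.22, 2.12 and 2.34 in secondary and 2.34, 2.78 and 3.27 in tertiary gliomas, which differ by 0.53 ± 0.21 on the log2 scale (SE, n = 4 and 3). This was 0.29 when tertiary glioma 3 was left out and 0.76 when tertiary glioma 1 was, the only alternative of 16 in which Gbx2 was called. Otx2, its forebrain and midbrain counterpart, read 3.04 in secondary glioma 1 and 2.18 in the other secondary samples, and 2.37, 2.05 and 2.18 in tertiary gliomas. Its log2 fold change was -0.19 ± 0.24, and 0.02 without secondary glioma 1. Both genes were below the dim filter in every sample, and detection calls were not analysed here, so these values set no level.

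In the fit over all genes 4 of the 5 tested members, En2, Cnpy1, Pou3f4 and Pou4f1, were called higher and none lower. Over all 14453 genes 1.04% were called higher and 6.33% lower, or 151 and 915 genes, and with each array centred on its median 275 and 829. The same 4 had every tertiary value above every secondary value, as did 10.8% of all genes tested. Since these 4 genes were picked for their rise, nothing is read from the counts. Without tertiary glioma 3, En2 and Cnpy1 were not called. En2 was also not called without secondary glioma 1, secondary glioma 4 or tertiary glioma 2.

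Markers of cells other than the tumour's differed between the groups. Of 19 tested markers of microglia and macrophages, the resident and infiltrating phagocytes of the brain, 19 were lower in tertiary gliomas, with a median log2 fold change of -4.23. Their mean level was 9.78 to 10.71 in secondary gliomas, highest in secondary glioma 3, and 5.59 to 6.42 in tertiary gliomas. Ptprc, the pan-leukocyte phosphatase, went from 10.23 ± 0.27 (SD) to 4.86 ± 0.69. Fewer cells of a type and less RNA per cell cannot be told apart in such samples. The oligodendrocyte precursor markers, in contrast, had none of 14 called by limma (0 with an unadjusted p under 0.05) and a median of 0.06, beside 0.09 over all genes tested. Their mean level ran from 9.61 to 10.09 in secondary gliomas, lowest in secondary glioma 3, and from 9.68 to 10.13 in tertiary gliomas. With each array centred on these tumour cell markers, the log2 fold change was 1.95 for En2, 4.23 for Cnpy1, 2.40 for Pou4f1 and 1.24 for Pou3f4. The precursor markers differed little between the groups, so this centring could move the members only slightly. The part that the fall of the phagocyte markers has in the members' differences was not tested.

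Markers of neurons and of choroid plexus, where En2, Pou4f1 or Otx2 are normally made, held no called gene. Whether such cells were among the sorted cells, and whether they have a part in the members' differences, was not tested. Among 7 tested cerebellar neuron markers none was called (0 with an unadjusted p under 0.05) and the median log2 fold change was 0.02. Their mean was 5.87 to 6.20 in secondary and 5.99 to 6.33 in tertiary gliomas, and 4 of the 7 had a positive difference. Parvalbumin, Pvalb, was at -0.37 ± 0.25 (SE) and Neurod2 at -0.26 ± 0.16. Cbln1, named after its values were seen, was at 0.72 ± 0.58. It read 5.56, 5.61, 5.79 and 6.51 in secondary and 5.09, 6.89 and 7.78 in tertiary gliomas. The defining granule cell genes Gabra6 and Atoh1 were below the dim filter. Of 12 tested pan-neuronal markers none was called by limma (2 with an unadjusted p under 0.05). Their median log2 fold change was 0.08, beside 0.09 over all genes tested, with 7 of the 12 positive. The neuronal tubulin Tubb3 was at 1.81 ± 0.50 (adjusted p = 0.0763) and Gap43 at 0.62 ± 0.26. The list mean was 6.31 to 6.99 in secondary and 6.81 to 7.23 in tertiary gliomas. None of 6 tested choroid plexus markers was called (1 with an unadjusted p under 0.05), and 4 of the 6 had a positive difference. Their mean was 4.63 to 5.54 in secondary and 4.77 to 5.07 in tertiary gliomas, with Folr1 at -0.52 ± 0.23 and Slc4a5 at 0.87 ± 0.37. Ttr, named after its values were seen, read 10.15, 5.30, 6.14 and 9.22 in secondary gliomas and 5.14 to 5.31 in tertiary gliomas. Its log2 fold change was -2.46 ± 1.12. Of the astrocyte markers 0 of 10 were called by limma (2 with an unadjusted p under 0.05, Aqp4 at -1.68 ± 0.69 and Aldh1l1 at -0.60 ± 0.21). Their median was -0.46, with 3 of the 10 positive. Of the myelin markers 2 of 9 were called lower, Mog and Mag, both at -2.42 (7 with an unadjusted p under 0.05). None of the 9 had a positive difference, and their median was -0.96. Of the endothelial and pericyte markers 1 of 10 was called lower, Anpep at -1.88 ± 0.36 (5 with an unadjusted p under 0.05). Their median was -0.39, with 2 of the 10 positive.

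The partners of the members at the midbrain-hindbrain border were then counted in the same fit. Of 21 further genes of this region 15 were tested and none was called by limma (2 with an unadjusted p under 0.05), with a median log2 fold change of 0.18 beside 0.09 over all genes. The closest were Irx5, an Iroquois homeobox factor, at 1.20 ± 0.32 (SE, adjusted p = 0.0677) and Lmx1b, a LIM homeobox factor that maintains Fgf8 and Wnt1 at the border, at 0.69 ± 0.19 (adjusted p = 0.0771). Both had every tertiary value above every secondary value, as did 10.8% of all genes tested. Irx5 read 5.03, 4.54, 4.81 and 3.81 in secondary and 6.09, 5.28 and 5.88 in tertiary gliomas. Lmx1b read 5.22, 5.38, 5.60 and 5.10, and then 6.24, 5.66 and 6.15. In both, as in Pou4f1, tertiary glioma 1 was the highest sample and tertiary glioma 2 the lowest tertiary one. Irx5 was called with quantile normalization or array weights, and Lmx1b with its probes averaged or with array weights. The signals of the organiser were not called: Fgf8 was at 0.11 ± 0.16 and Fgf17 at -0.15 ± 0.15, while Wnt1 was below the dim filter.

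Fibroblast growth factor signalling, the pathway that Cnpy1 is known to act on, was read through its receptors and feedback genes. Of 17 tested, none was called higher and 1 was called lower, with a median log2 fold change of 0.19 (3 with an unadjusted p under 0.05). The receptor Fgfr2 fell by 1.88 on the log2 scale (SE 0.26, adjusted p = 0.00374), from 6.19, 5.76, 6.16 and 6.49 in secondary to 4.50, 4.62 and 3.72 in tertiary gliomas. With its 3 probes averaged the difference was -0.88 and was not called. The feedback genes Spry2 (0.57 ± 0.39), Il17rd (0.70 ± 0.20), Etv5 (0.12 ± 0.17) and Dusp6 (-0.31 ± 0.18), named after their values were seen, were not called. The relatives of Cnpy1 were not called: Cnpy2 was at 0.24 ± 0.17, Cnpy3 at 0.11 ± 0.20 and Cnpy4 at 0.06 ± 0.25, and none had an unadjusted p under 0.05.

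Of the other POU genes, 7 of 13 were tested. None was called higher, and Pou2f2 (Oct2), a factor of B cells and macrophages, was called lower at -1.29 ± 0.27 (SE, adjusted p = 0.0292). It read 6.32, 6.51, 7.35 and 6.44 in secondary and 5.16, 5.23 and 5.71 in tertiary gliomas. Secondary glioma 3 was highest, as it was in the mean of the phagocyte markers, and a link of Pou2f2 with those markers was not tested. Its call was lost with its probes averaged (-0.90), with quantile normalization (-1.23) and without any 1 of secondary gliomas 2 and 4 and tertiary gliomas 1 and 2. The class III relatives of Pou3f4, which act in neural progenitors and oligodendrocyte precursors, were not called: Pou3f1 was at -0.15 ± 0.45, Pou3f2 at 0.48 ± 0.26 and Pou3f3 at 0.30 ± 0.28. Pou4f3, the inner ear relative of Pou4f1, was below the dim filter. Genes of sensory neurons, where Pou4f1 acts, had none of 12 called by limma (1 with an unadjusted p under 0.05). Their median log2 fold change was 0.08, with 7 of the 12 positive. Runx1 was at -1.79 ± 0.46 (adjusted p = 0.0587) and the neuropeptide gene Tac1 at -0.57 ± 0.38. Runx1 is also a factor of myeloid cells, and it was called lower under 4 alternative settings of the fit and without tertiary glioma 1 or 2.

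Factors of other brain regions were counted in the same way. Of 10 tested forebrain factors none was called (2 with an unadjusted p under 0.05; median log2 fold change 0.08). Gsx2, a homeobox factor of the ventral forebrain, was at 2.02 ± 0.60 (SE, adjusted p = 0.0946 by limma). Nr2f1, a nuclear receptor of the caudal cortex, was at 1.06 ± 0.28 (adjusted p = 0.0655). In both, every tertiary value lay above every secondary value, as also in Lhx2 (0.36 ± 0.26), named after its values were seen. Gsx2 was called with oligodendrocyte precursor centring, with array weights and without tertiary glioma 1. Nr2f1 was called with median centring, precursor centring or array weights. Of 7 tested hindbrain and spinal cord factors none was called (1 with an unadjusted p under 0.05; median 0.01), with Hoxa2 at 0.81 ± 0.40 and Egr2, also an immediate early gene, at -1.01 ± 0.31. The dopamine and serotonin neuron genes had none of 5 called (0 with an unadjusted p under 0.05), with Th at 0.10 ± 0.13 and Aldh1a1 at -0.85 ± 0.86.

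**Figure D3:**
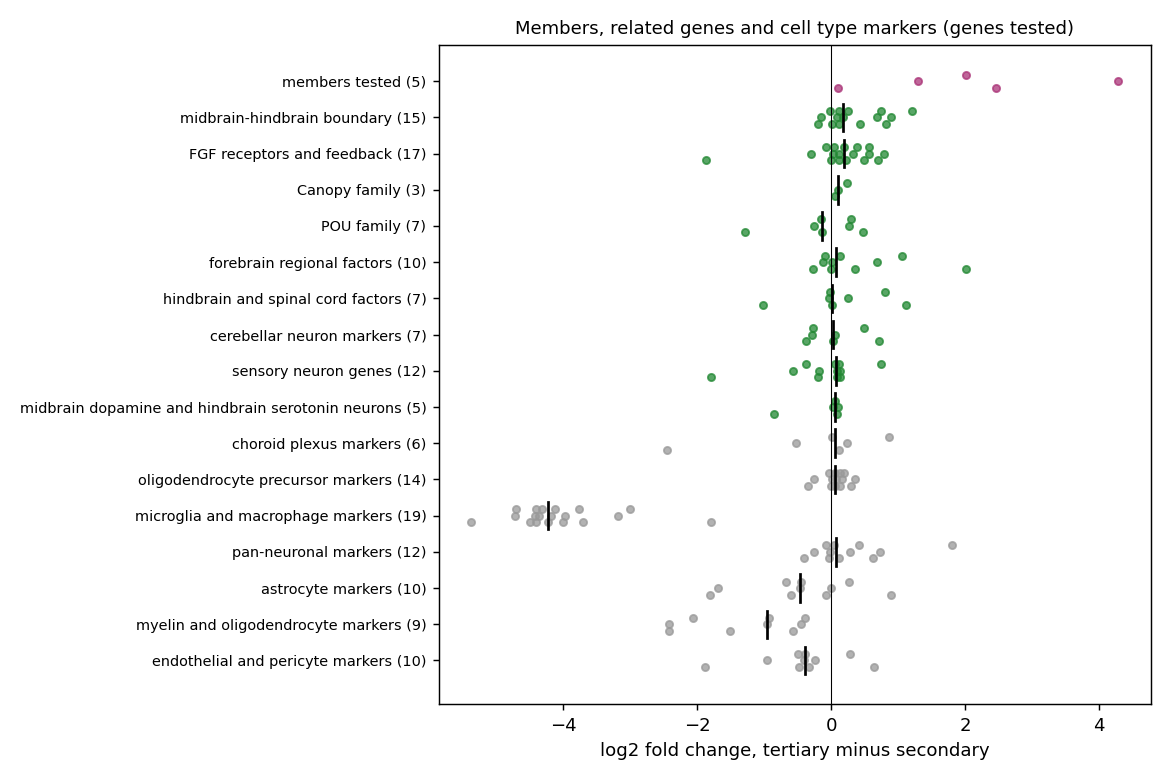
Log2 fold change, tertiary minus secondary, of each tested gene (points) of the members (purple), related lists (green) and cell type markers (grey), with a black bar at the median of each list other than the members and the number tested in brackets. Microglia and macrophage markers have a median of -4.23 and the midbrain-hindbrain list 0.18.

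En2 and Cnpy1 are neighbours on mouse chromosome 5, with 0 protein-coding genes between them in the GRCm38.p6 gene table. The 5 nearest tested genes on each side of the pair, and of Pou3f4 and Pou4f1, were therefore read in the same fit. None of the 10 neighbours of En2 and Cnpy1 was called (4 with an unadjusted p under 0.05 by limma), and their log2 fold changes ran from -0.78 to 0.60 with a median of 0.14. Next to En2 lay Insig1, a brake on cholesterol synthesis, at 0.60 ± 0.17 (SE, adjusted p = 0.0858). Next to Cnpy1 lay Rbm33 at 0.06 ± 0.22, and then the morphogen gene Shh at -0.08 ± 0.12. Farther out were Paxip1 (0.59 ± 0.25), Speer4b (-0.78 ± 0.38), Dpp6 (-0.31 ± 0.30) and Speer4a (-0.52 ± 0.22) on the En2 side. On the Cnpy1 side were Rnf32 (0.37 ± 0.29), Lmbr1 (0.22 ± 0.22), which carries the limb enhancer of Shh, and Ube3c (0.55 ± 0.16, adjusted p = 0.0879). The log2 fold changes of the pair were 2.01 and 4.29. The pair was chosen for its rise and its neighbours were not, so nothing is read from the larger values of the pair.

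Around Pou3f4 on the X chromosome 1 of 10 neighbours was called lower and none was called higher, with a median log2 fold change of 0.36. That gene was Cysltr1, a leukotriene receptor of leukocytes, at -4.23 ± 0.28 (SE, adjusted p = 0.000109 by limma). It moved in the direction of the phagocyte markers, and a link with them was not tested. The others ran from -0.63 ± 0.67 for Itm2a to 1.21 ± 0.58 for Dach2 and included Sh3bgrl (-0.16 ± 0.16), Hmgn5 (0.49 ± 0.25), Brwd3 (0.15 ± 0.24), Rps6ka6 (1.01 ± 0.52), Apool (0.45 ± 0.20), Zfp711 (0.63 ± 0.27) and Chm (0.28 ± 0.14). Around Pou4f1 on chromosome 14 the nearest tested gene on 1 side, the ubiquitin ligase gene Obi1, was higher at 0.64 ± 0.14 (adjusted p = 0.0329), with 8.53, 8.88, 8.61 and 8.64 in secondary and 9.20, 9.43 and 9.29 in tertiary gliomas. Its call was lost with averaged probes, oligodendrocyte precursor centring or a replicate block. It was also lost without any 1 of secondary gliomas 1, 3 and 4 and tertiary gliomas 2 and 3. The other 9, Ednrb, Slain1os, Slain1, Scel, Mycbp2, Rbm26, Ndfip2, Spry2 and Slitrk1, lay between -0.21 and 0.57 and were not called.

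**Figure D4:**
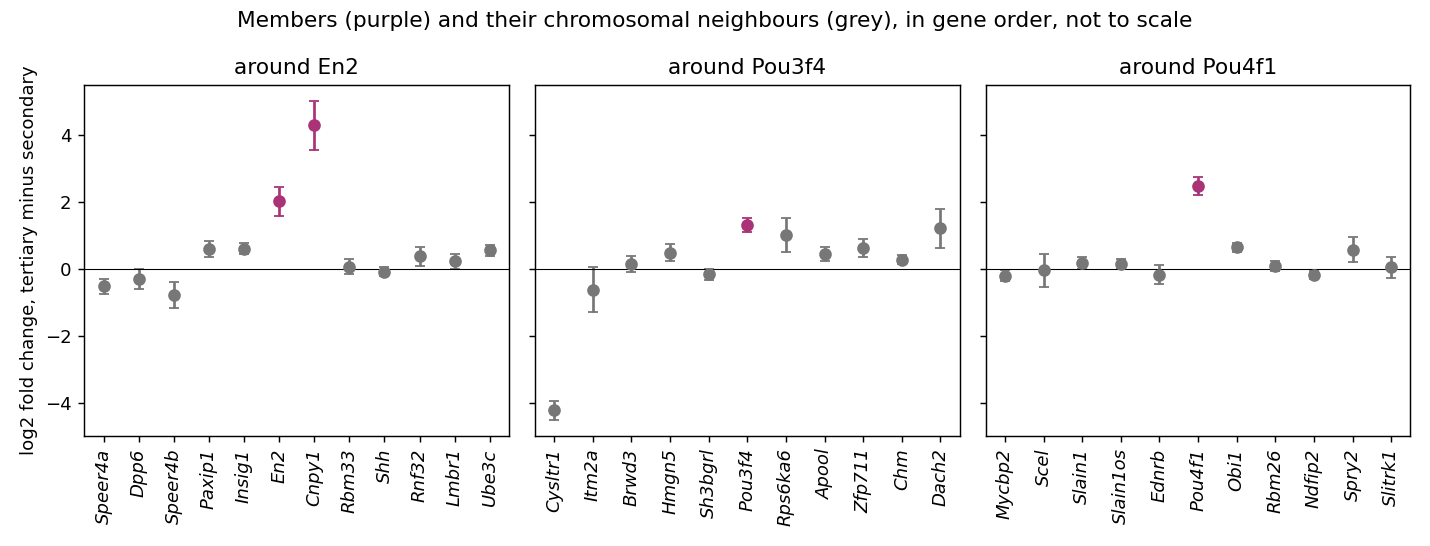
Log2 fold change ± SE, tertiary minus secondary, of En2 and Cnpy1, Pou3f4 and Pou4f1 (purple) and of the 5 nearest tested genes on each side (grey), in chromosomal order with equal spacing. En2 at 2.01 and Cnpy1 at 4.29, which were chosen for their rise, stand above all 10 of their neighbours, and Cysltr1 near Pou3f4 lies at -4.23.

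The genes whose levels most resembled each rising member were ranked by Pearson's r over the 7 arrays, as a description: the arrays form 2 groups, so a difference between the groups alone gives a high r. En2 was closest to Gars (r = 0.99), which encodes glycyl-tRNA synthetase, and then to Zfp661 and Kctd5. Cnpy1 was closest to the RNA helicase gene Ddx1 (r = 0.99), then Psmg1, a proteasome assembly factor, and Rsl24d1. Pou3f4 was closest to Polr3b, a subunit of RNA polymerase III (r = 0.99), then Smarcb1 and Asb7. Pou4f1 was closest to Prcc (r = 0.97), then Mtarc1 and Tcf20. Between members, En2 and Cnpy1 had an r of 0.95, and En2 and Pou4f1 an r of 0.72. Among all genes tested, Cnpy1 ranked 169 and Pou4f1 2761 in likeness to En2, and En2 ranked 140 in likeness to Cnpy1. In deviations from the group means, over the same 7 arrays, r was 0.78 for En2 with Cnpy1 and -0.86 for En2 with Pou4f1, in which secondary glioma 3 and tertiary glioma 1 weigh most.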

How the data were processed

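RNA of the 7 sorted samples, 30 ng each per the labels, was amplified to cDNA and hybridised. The authors deposited log2 values per probe made with RMA, per the submitters' processing notes. Its version is not stated in the sources used here. The log base was read from the values. RMA equalises the arrays and compresses dim probes. Of 45101 probes, 34945 had 1 gene symbol in the platform annotation, 932 several and 9160 none. Genes were compared with limma 3.58.1 in R 4.3.3 (lmFit, eBayes, Benjamini-Hochberg over 14453 genes), with no covariate, after checks on simulated data. Tables and figures used Python 3.11.15, pandas 2.3.3 and matplotlib 3.10.9.

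The members and lists were chosen with earlier results of these data known. All members were named, with up to 4 called genes of a list by lowest p (otherwise the 2 with the lowest p), every neighbour and the 3 genes most like each rising member, predicted genes passed over. Alternatives were averaged probes, other dim filters, 3 scalings, other variance models, array weights, a replicate block and leaving out each sample. Pairs of arrays shared at most 5.39% of their values, so none of the 7 was a copy of another. Whether the tumours were related was not tested. Scan dates were not analysed here.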

Additional observations from a re-analysis of the deposited data

Results flagged for a closer look

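In 70 groups of 4 secondary gliomas examined, 12 had a single sample whose distance to its nearest neighbour exceeded Dixon's critical ratio to the group's range, where chance gives about 1 in 20. Otx2 and Pou3f4 were the members among them. Otx2 had a ratio of 0.998 because secondary glioma 1 read 3.04 and the others 2.18, all below the dim filter. Pou3f4 had a ratio of 0.900 because secondary glioma 3 read 5.84 and the others 5.96 to 5.97, a range of 0.13. Secondary glioma 3 was also the low sample in the mean of the fibroblast growth factor list (ratio 0.858) and in Spry2 (0.938), Dach2 (0.844), Rnf32 (0.973) and Slitrk1 (0.914). Secondary glioma 1 was the high sample in the mean of the midbrain-hindbrain list (0.898) and the low one in Cnpy3 (0.849). Secondary glioma 4 was the high sample in Pvalb (0.978) and the low one in Slain1os (0.870) and Th (a ratio of 1.00, from 4.03 beside 4.08).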

How the results depend on the processing

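The log2 fold changes of the 8 members moved by less than the SD between replicates under all 16 alternatives, with 1.65 to 2.35 for En2 and 3.72 to 5.27 for Cnpy1. The number of members called higher was 4, 2 with the replicate block (without En2 and Pou3f4) and 2 to 4 with 1 sample left out; with averaged probes, or with the dim filter raised to the 50th percentile, Pou4f1 was dim and not tested. The labels do not say that same-numbered samples belong together. Their deviations from the group means had r = 0.04, -0.14 and 0.01, and those of differently numbered pairs had r from -0.24 to 0.27. Such values cannot show which secondary glioma a tertiary one came from, so whether the block fits the design was not settled. Genes called higher numbered 151, but 275 with median centring, 76 with oligodendrocyte precursor centring, 668 with array weights, 61 with the replicate block and 27 to 781 with 1 sample left out (56, 77, 68 and 70 without secondary gliomas 1 to 4, and 781, 27 and 43 without tertiary gliomas 1 to 3). Genes called lower numbered 915, and 575 with the block. Among the border genes, none called in the reported fit, 1 was called higher with averaged probes and with quantile normalization. This was 3 with array weights and 0 to 1 with 1 sample left out. In the fibroblast growth factor list 1 was called higher with array weights and 0 to 1 with 1 sample left out. There 0 were called lower with averaged probes and with the 50th percentile filter. In the POU list 0 were called lower with averaged probes and quantile normalization, and 0 to 1 with 1 sample left out. Forebrain factors called higher numbered 1 with median centring, 2 with precursor centring, 2 with array weights and 0 to 1 with 1 sample left out. Hindbrain factors called lower and cerebellar markers called higher numbered 0 to 1 with 1 sample left out. Sensory neuron genes called lower numbered 2 with averaged probes, 1 with the 50th percentile filter, precursor centring or array weights, and 0 to 2 with 1 sample left out. Neighbours of En2 called higher numbered 1 with array weights and 0 to 1 with 1 sample left out. Those of Pou3f4 called higher numbered 1 with averaged probes and 0 to 2 with 1 sample left out, and those called lower 0 with averaged probes and with the 50th percentile filter. Those of Pou4f1 called higher numbered 0 with averaged probes, precursor centring and the block, and 0 to 1 with 1 sample left out. Genes fall out of the stricter filters by construction; the cause of the other changes was not tested. Of 46 named related and neighbouring genes, 4 were called and 1 of these kept its call in all fits in which it was tested. Secondary values of Cnpy1 and Pou4f1 near or below the dim filter limit the size of their folds.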

Other observations

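Single regional genes were high in only 1 or 2 of the tertiary gliomas; these were picked after their values were seen, from the 20 genes of the related lists whose highest and lowest samples differed by over 2 on the log2 scale, and carry no test. In tertiary glioma 1, the sample highest in Pou4f1, Prrxl1, a homeobox factor of sensory neurons, read 6.27 beside 3.88 to 4.24 in the other 6 samples, and the forebrain factor Six3 read 7.03 beside 4.31 to 6.01. In tertiary glioma 2, the sample highest in En2 and Cnpy1, the hindbrain factors Hoxa2 (6.13 beside 4.01 to 4.59) and Hoxa3 (7.05 beside 3.53 to 5.25) were highest, as were Irx2 (7.39) and Gsx2 (6.67). In tertiary glioma 3 the dorsal factor Zic2 read 7.11 beside 2.00 to 3.82, and Tph2, an enzyme of serotonin neurons, read 5.49 beside 2.15 to 2.83. Zic1 followed another pattern, at 5.59, 4.80 and 4.68 in secondary gliomas 1 to 3, 1.72 in secondary glioma 4 and 1.21, 1.76 and 3.47 in tertiary gliomas.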
